A study of Caenorhabditis elegans with 4 samples.

Results

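The genes described here carry out the handling of fatty acids in the nematode Caenorhabditis elegans: lipid-binding proteins (lbp), acyl-CoA synthetases (acs), carnitine palmitoyltransferases (cpt), acyl-CoA dehydrogenases (acdh), acyl-CoA oxidases (acox), enoyl-CoA hydratases (ech and maoc) and fatty acid elongases (elo). The families are named by prefix alone, and the activity of each product was not checked. The members are every gene whose current symbol has one of these prefixes followed by a number. This rule uses no measured value, but the families were chosen with earlier results of these data known. The RefSeq gene table lists 78 such genes, and 70 of them were measured, among 14943 named genes in all. The 8 others (acdh-10, acs-13, cpt-1, cpt-3, ech-7, elo-8, elo-9 and lbp-9) were not analysed here. One of the 70, acs-23, is annotated as a pseudogene.

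Total RNA of 4 separate preps of glp-4 larvae at L4, the stage before the adult, was hybridised on 4 two-colour arrays, each against RNA of wild-type worms of mixed stages. The gene glp-4 codes for a valyl-tRNA synthetase, and its temperature-sensitive mutant is widely used to obtain worms that lack most of the germline. No allele, temperature or method of staging is given in the labels, and the reference differs from the glp-4 animals in both genotype and stage, so the 2 cannot be told apart. Each deposited value is a log2 ratio, where 1 is a 2-fold difference. The direction, glp-4 L4 over reference, is taken from which channel held which RNA, which makes it likely, but no label states it, and every "higher" or "lower" below rests on it.

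Fatty acids are carried through the cytosol by small binding proteins and become chemically active when a synthetase joins them to coenzyme A. Carnitine palmitoyltransferases pass long chains into mitochondria, where acyl-CoA dehydrogenases begin beta-oxidation, while in peroxisomes the first step falls to acyl-CoA oxidases. Hydratases take the second step, and elongases at the endoplasmic reticulum work in the opposite direction, lengthening the chain. In C. elegans much of this metabolism takes place in the intestine, the worm's main fat store, and peroxisomal oxidation also trims the side chains of ascarosides, the worm's pheromones.

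Most of these genes were higher in glp-4 L4 larvae. Of the 70 members, 45 were higher (64.3%) and 9 lower (12.9%), while 16 did not pass the test (limma, Benjamini-Hochberg adjusted p under 0.05 over all 19989 genes and unnamed probes tested). Over all of these, 20.6% were higher and 24.4% lower, and over the 14940 named genes tested 23.4% were higher and 24.1% lower. At a mean log2 ratio of at least 1, 33 members were higher, against 10.3% of all genes and probes, and at -1 or below 2 members were lower, against 9.59%. All 70 members had a value on each of the 4 arrays, so none was dropped from the test. On every array, 45 members lay above 0 and 11 below it. The labels do not say how the preps were grown or whether the reference was 1 pool. A p-value here rests on the spread of the 4 ratios, with variances moderated over all genes and probes tested. The spread of the preps and that of the reference and arrays cannot be separated in it.

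**Figure D1:**
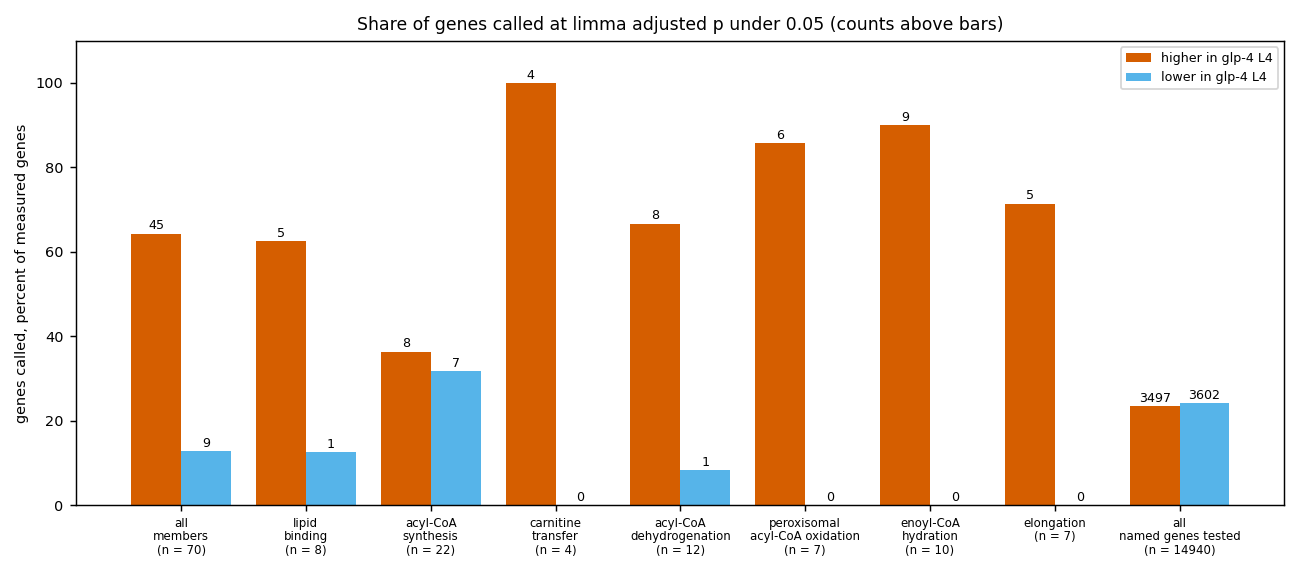
Share of measured genes (percent) called higher or lower in glp-4 L4 larvae at a limma adjusted p under 0.05, for all 70 members, each step of the pathway and all 14940 named genes, with counts above the bars. Higher calls outnumber lower ones at every step, by the least among the acyl-CoA synthetases (8 against 7).

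The median over the members was 0.47, 0.89, 1.27 and 0.91 on preps 1 to 4 (0.89 ± 0.33, SD, n = 4), while the median over all named genes tested was 0.02, 0.01, -0.05 and -0.04. Prep 1 gave the lowest value for 35 of the 45 higher members. It also gave the lowest value for 59.1% of all named genes that were higher and measured on every array. Members varied between preps by a median SD of 0.34, with the widest spread in acs-2 (1.80) and acdh-2 (1.13).

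**Figure D2:**
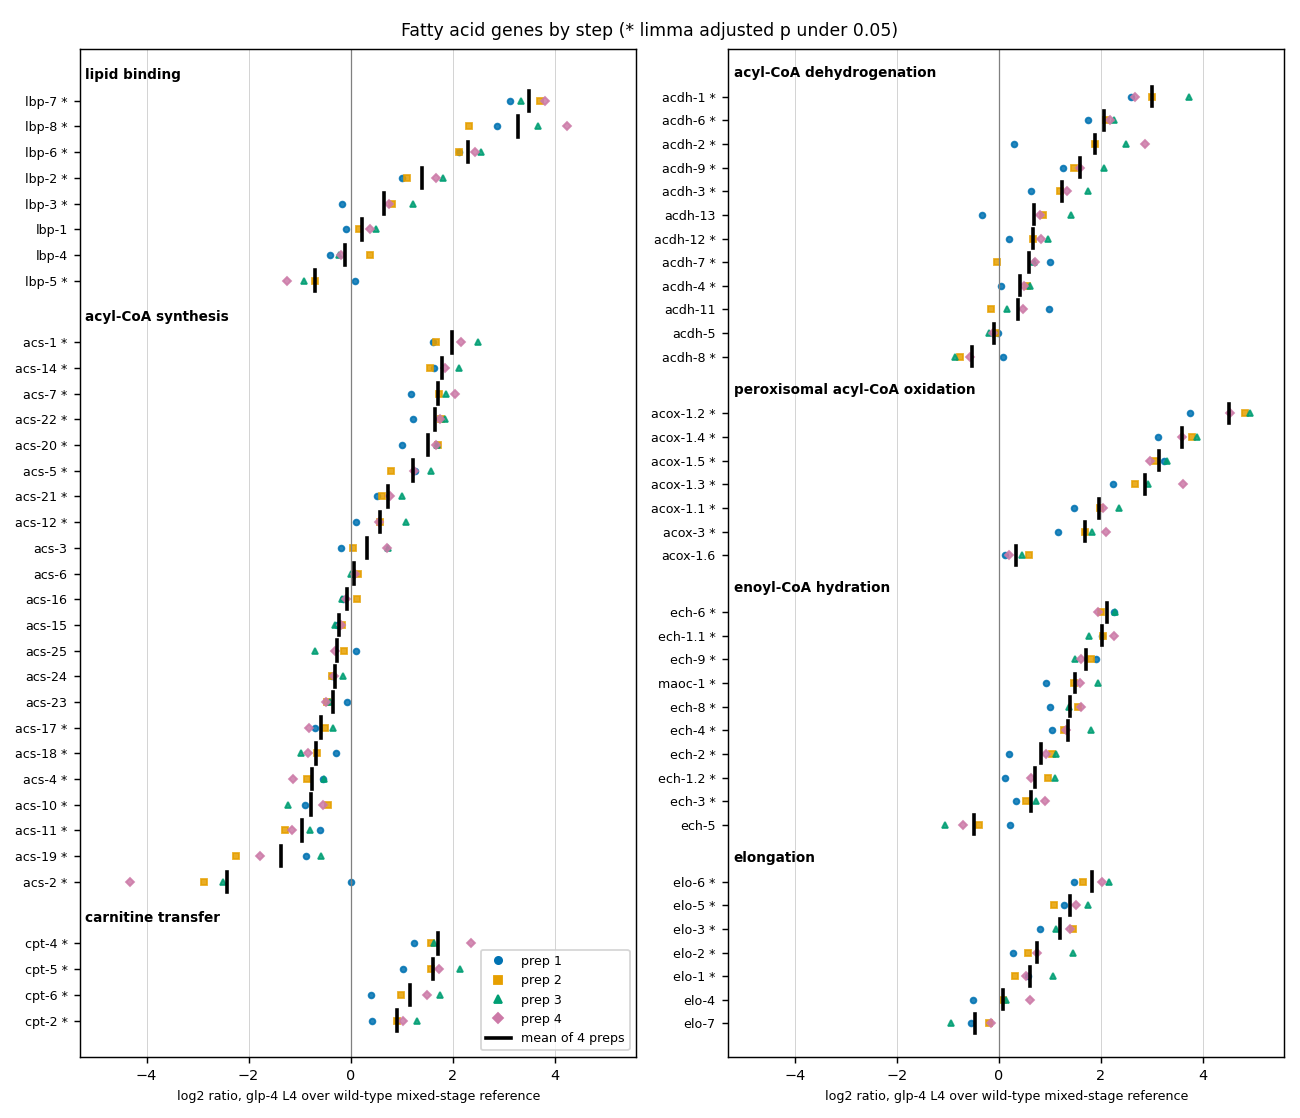
Log2 ratio of glp-4 L4 over the wild-type mixed-stage reference (horizontal axis) for each of the 70 members, grouped by step and ordered by mean, with 1 symbol for each of the 4 preps and a bar for their mean. Asterisks mark limma adjusted p under 0.05. All 7 acyl-CoA oxidases and all 4 carnitine palmitoyltransferases lie above 0 on every array, whereas the synthetases run from acs-1 at 1.99 to acs-2 at -2.42.

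The lipid-binding proteins held some of the largest differences. Of 8 measured, 5 were higher (62.5%) and 1 lower (12.5%), against 20.6% and 24.4% over all genes and probes. The log2 ratio of lbp-7 (T22G5.2) was 3.13, 3.72, 3.34 and 3.82 on preps 1 to 4, a mean of 3.50 ± 0.32 or 11.3-fold (SD, n = 4; limma adjusted p = 2.6e-06). For lbp-8 (T22G5.6), whose product is known to carry a lipid signal from the lysosome to the nucleus, the values were 2.86, 2.32, 3.68 and 4.25 (3.28 ± 0.85, limma adjusted p = 5.1e-05). Both genes were far above 0 on every array, and their ranges overlapped. The intracellular binding protein gene lbp-6 had 2.12, 2.13, 2.56 and 2.44 (2.31 ± 0.22, limma adjusted p = 9.8e-06).

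The other binding proteins lay closer to 0. Of lbp-1, lbp-2 and lbp-3, whose products are predicted to be secreted, lbp-2 was higher on all preps at 1.01, 1.11, 1.80 and 1.68 (1.40 ± 0.40). The ratio of lbp-3 was -0.16 on prep 1 and 0.75 to 1.23 on the others (0.66 ± 0.59, limma adjusted p = 0.039), and lbp-1 did not pass, at 0.23 ± 0.25. The single lower member was lbp-5, with 0.08, -0.69, -0.91 and -1.24 (-0.69 ± 0.56, limma adjusted p = 0.029), and lbp-4 did not pass at -0.11 ± 0.34. The calls of lbp-3 and lbp-5 were lost without prep 2, 3 or 4, with means of 0.61, 0.47 and 0.63 for lbp-3 and -0.69, -0.62 and -0.51 for lbp-5. Both were also lost with preps 3 and 4 treated as related because their titles share a code (as a block or averaged), and without moderation of the variances, so that 0 binding proteins were then lower.

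Acyl-CoA synthetases were divided. Of 22 measured, 8 were higher (36.4%), 7 lower (31.8%) and 7 did not pass, and their median over genes was -0.09 ± 0.06, close to that of all named genes, of which 23.4% were higher and 24.1% lower. The highest was acs-1 (F46E10.1), which activates branched-chain fatty acids, with 1.62, 1.67, 2.51 and 2.16 (1.99 ± 0.42, limma adjusted p = 6.0e-05). It was followed by acs-14 at 1.64, 1.56, 2.13 and 1.86 (1.80 ± 0.26), and by acs-7, an enzyme of ascaroside synthesis, at 1.18, 1.74, 1.88 and 2.06 (1.71 ± 0.38).

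The fatty acid transport protein homologs acs-22 and acs-20, known for their part in the cuticle barrier, had similar ratios. They were 1.22, 1.78, 1.86 and 1.75 for acs-22 (1.65 ± 0.29) and 1.01, 1.71, 1.70 and 1.67 for acs-20 (1.52 ± 0.35), with prep 1 lowest in both. The last member above 1 was acs-5 at 1.27, 0.79, 1.58 and 1.24 (1.22 ± 0.33). Smaller ratios passed for acs-21 (0.73 ± 0.22) and acs-12 (0.58 ± 0.41), of which acs-12 was lost without prep 2, 3 or 4 (0.58, 0.41 and 0.59), with preps 3 and 4 as a block or averaged, and without moderation.

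The lowest member of the whole set was acs-2 (F28F8.2), a mitochondrial synthetase known to be induced by fasting through the nuclear receptor NHR-49. Its log2 ratio was 0.01 on prep 1, against -2.88, -2.50 and -4.32 on preps 2 to 4 (-2.42 ± 1.80, limma adjusted p = 0.0081), and the mean without prep 1 was -3.23. Without moderation of the variances acs-2 did not pass (limma adjusted p = 0.151). The mean thus covers 1 prep at 0 and 3 preps far below it. The acetyl-CoA synthetase homolog acs-19 was lower on all preps, at -0.87, -2.25, -0.58 and -1.77 (-1.36 ± 0.78, limma adjusted p = 0.0036). The other lower ones, acs-11, acs-10, acs-4, acs-18 and acs-17, had means between -0.96 and -0.59 and lay below 0 on every array. Of the 7 lower synthetases only acs-17 lost its call when a prep was left out (prep 4, -0.51). Without moderation acs-19, acs-10, acs-4 and acs-18 did not pass either, acs-11 and acs-17 remained, and acs-15 and acs-24 were called lower. Without prep 1, acs-23 (-0.45) and acs-3 (0.4997) gained a call.

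All 4 measured carnitine palmitoyltransferase genes were higher, against 20.6% over all genes and probes, with a median of 1.33 ± 0.44. Without moderation of the variances 2 of them were higher, and cpt-2 (limma adjusted p = 0.055) and cpt-6 (limma adjusted p = 0.081) did not pass. The values on preps 1 to 4 were 1.24, 1.59, 1.64 and 2.37 for cpt-4 (1.71 ± 0.48, limma adjusted p = 0.00019) and 1.04, 1.58, 2.15 and 1.73 for cpt-5 (1.62 ± 0.46). They were 0.40, 0.99, 1.75 and 1.49 for cpt-6 (1.16 ± 0.59) and 0.42, 0.92, 1.31 and 1.03 for cpt-2 (0.92 ± 0.37), the homolog of the enzyme on the inner mitochondrial membrane. No value lay below 0, and prep 1 was the lowest for each gene.

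Of 12 acyl-CoA dehydrogenases, 8 were higher (66.7%) and 1 lower (8.33%), against 20.6% and 24.4% over all genes and probes. Their median was 0.81 ± 0.29. The highest was acdh-1 (C55B7.4), a short and branched-chain enzyme that opens the propionate shunt, with 2.60, 2.99, 3.74 and 2.67 (3.00 ± 0.52, 8.01-fold, limma adjusted p = 1.4e-05). Next came acdh-6 with 1.75, 2.10, 2.26 and 2.17 (2.07 ± 0.22). The ratio of acdh-2 was 0.30 on prep 1, against 1.88, 2.49 and 2.86 on the others (1.88 ± 1.13, limma adjusted p = 0.0034). It was above 0 on every array but with a range wider than that of any other higher member, and did not pass without moderation (limma adjusted p = 0.106). The branched-chain enzyme homolog acdh-9 had 1.27, 1.47, 2.07 and 1.60 (1.60 ± 0.34), and acdh-3 had 0.63, 1.19, 1.76 and 1.34 (1.23 ± 0.46).

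Dehydrogenases with smaller ratios were less stable. The very long-chain enzyme homolog acdh-12 had 0.67 ± 0.33 and lost its call without prep 4 (0.61). The medium-chain homolog acdh-7 had 0.60 ± 0.44, with prep 2 at -0.03, and lost it without prep 1, 3 or 4 (0.46, 0.57 and 0.56) and with preps 3 and 4 averaged. The closest to the threshold was acdh-4 at 0.43 ± 0.26 (limma adjusted p = 0.049), lost without prep 2, 3 or 4 (0.38, 0.36 and 0.40), with preps 3 and 4 as a block or averaged, and with 1 probe per gene. The lower member acdh-8 had 0.08 on prep 1 and -0.75, -0.87 and -0.56 on the others (-0.53 ± 0.42), and lost its call without prep 2, 3 or 4 (-0.45, -0.41 and -0.51), with preps 3 and 4 as a block or averaged, and when arrays were centred. Among those that did not pass, acdh-5 had -0.09 ± 0.08, acdh-11, known to set the response of fat desaturation to temperature, had 0.37 ± 0.49, and acdh-13 had 0.69 ± 0.73. Without prep 1, acdh-13 had 1.03 and passed. In place of 8 dehydrogenases, 5 were higher without prep 4 and 4 without moderation.

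The peroxisomal acyl-CoA oxidases had the highest median of any step, 2.70 ± 0.33. Of 7 oxidases 6 were higher (85.7%), against 20.6% over all genes and probes. The largest ratio of all members was that of acox-1.2 (F08A8.2), at 3.74, 4.83, 4.93 and 4.53 (4.51 ± 0.54, 22.8-fold, limma adjusted p = 2.6e-06), which ranks 19 of 14940 named genes by mean. For acox-1.4 (F08A8.4) the values were 3.11, 3.79, 3.89 and 3.59 (3.60 ± 0.35). For acox-1.5 they were 3.25, 3.07, 3.29 and 2.96 (3.14 ± 0.16).

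The remaining oxidases also lay above 0 on every array. The ratio of acox-1.3 was 2.25, 2.66, 2.92 and 3.61 (2.86 ± 0.57), and that of acox-1.1, which shortens ascaroside side chains, 1.47, 1.98, 2.35 and 2.05 (1.96 ± 0.36). The gene acox-3 had 1.15, 1.70, 1.83 and 2.10 (1.70 ± 0.40). Only acox-1.6 did not pass, at 0.11, 0.59, 0.46 and 0.19 (0.34 ± 0.22, limma adjusted p = 0.091). None of the 6 calls was lost when any prep was left out.

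Of 10 genes grouped as enoyl-CoA hydratases by prefix alone, 9 were higher (90%) and 0 lower (limma, 1 lower at an unadjusted p under 0.05). Over all genes and probes 20.6% were higher and 24.4% lower. The median of the 10 was 1.31 ± 0.23. On every array 9 of them lay above 0. The homolog of the short-chain hydratase, ech-6 (T05G5.6), had 2.26, 2.01, 2.27 and 1.95 (2.12 ± 0.17, limma adjusted p = 1.2e-05), among the narrowest spreads of the higher members. It was followed by ech-1.1, a homolog of the alpha subunit of the mitochondrial trifunctional protein, at 2.03, 2.04, 1.78 and 2.25 (2.03 ± 0.19). The second homolog of that subunit, ech-1.2, had 0.12, 0.97, 1.10 and 0.63 (0.70 ± 0.44). The difference between these 2 was 1.92, 1.07, 0.68 and 1.62 on preps 1 to 4 (1.32 ± 0.55), in the same direction on all 4, and the values of the 2 genes did not overlap (p = 0.125 by an exact two-sided permutation of the signs, which cannot go lower with 4 preps).

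The other hydratases included the peroxisomal ones. The peroxisomal hydratase gene maoc-1 had 0.93, 1.47, 1.95 and 1.59 (1.49 ± 0.42), ech-9 had 1.90, 1.81, 1.49 and 1.62 (1.70 ± 0.19) and ech-8 had 1.004, 1.55, 1.38 and 1.61 (1.39 ± 0.27). For ech-4 the values were 1.05, 1.27, 1.81 and 1.33 (1.37 ± 0.32). Smaller ratios were those of ech-2 (0.82 ± 0.42) and ech-3 (0.63 ± 0.24). Calls were lost for ech-1.2 without prep 2 or 3 (0.62 and 0.57) and for ech-3 without prep 4 (0.54), and for ech-1.2, ech-2 and ech-3 without moderation. The one hydratase below 0, ech-5, had 0.22, -0.39, -1.05 and -0.70 (-0.48 ± 0.54) and did not pass, though it was called lower without prep 1 (-0.71).

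Among the elongases, 5 of 7 were higher (71.4%) and 0 lower (limma, 1 lower at an unadjusted p under 0.05). Over all genes and probes 20.6% were higher and 24.4% lower. The median of the elongases was 0.75 ± 0.26. The elongases of branched-chain fatty acids were the highest, elo-6 (F41H10.8) at 1.47, 1.65, 2.17 and 2.02 (1.83 ± 0.32, limma adjusted p = 5.1e-05) and elo-5 (F41H10.7) at 1.28, 1.08, 1.75 and 1.52 (1.40 ± 0.29). The ratio of elo-3 was 0.82, 1.46, 1.12 and 1.40 (1.20 ± 0.29). The elongases of saturated and polyunsaturated chains had smaller ratios, 0.27, 0.57, 1.45 and 0.74 for elo-2 (0.76 ± 0.50) and 0.58, 0.31, 1.06 and 0.53 for elo-1 (0.62 ± 0.32). The call of elo-2 was lost without prep 4 (0.76) and that of elo-1 without prep 3 (0.47), and both without moderation, which left 3 elongases higher. For elo-4 the values were -0.50, 0.08, 0.15 and 0.62 (0.09 ± 0.46), so no direction can be given, and for elo-7 they were -0.55, -0.20, -0.94 and -0.15 (-0.46 ± 0.37, limma adjusted p = 0.056).

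**Figure D3:**
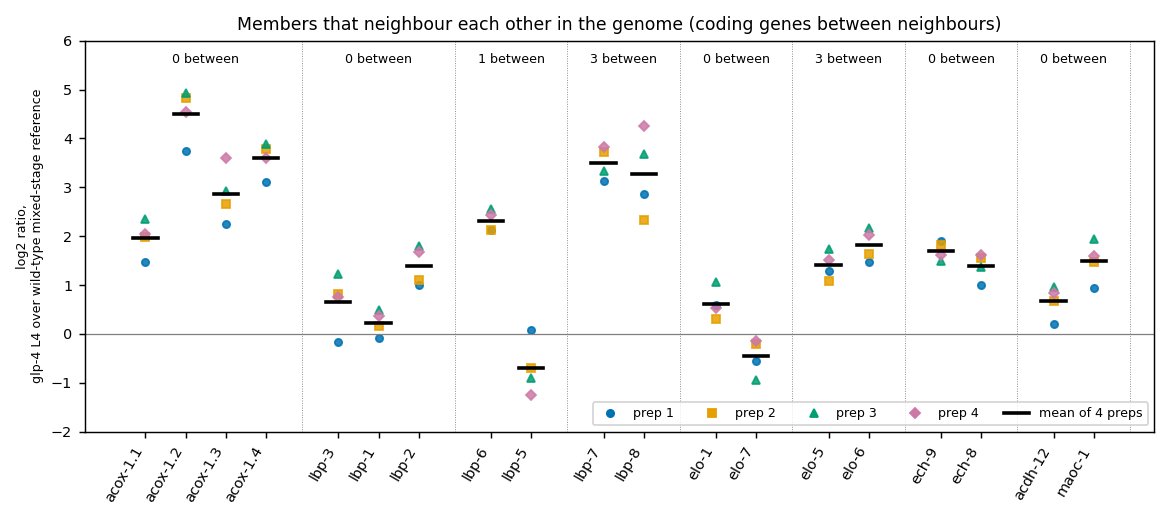
Log2 ratio of glp-4 L4 over the reference (vertical axis) for members that neighbour each other on a chromosome of the RefSeq table, with a symbol for each of 4 preps, a bar for the mean and the number of coding genes between neighbours at the top. The 4 adjacent acyl-CoA oxidase genes are all above 1 on every array, whereas lbp-6 and lbp-5 lie on opposite sides of 0 on preps 2 to 4.

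Several members lie beside each other in the RefSeq gene table, and neighbours did not always have the same ratio. The genes acox-1.1, acox-1.2, acox-1.3 and acox-1.4 follow one another with no coding gene between them, and all 4 were higher. Within this run acox-1.2 exceeded acox-1.1 by 2.27, 2.84, 2.58 and 2.48 on preps 1 to 4 (2.54 ± 0.24). The sequences of these genes were not compared here. Probes of similar copies can bind each other's transcripts, so the single values of these 4 are uncertain. The same applies to neighbouring genes of 1 family named below, whose sequences were not compared either.

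In the lbp family, lbp-7 and lbp-8 lie 3 coding genes apart and both were among the highest members, at a difference of 0.22 ± 0.84 that had no constant direction. By contrast lbp-6 and lbp-5 have 1 coding gene between them and differed by 2.04, 2.83, 3.47 and 3.68 (3.00 ± 0.74) with no overlap. The run of lbp-3, lbp-1 and lbp-2 held 1 gene that did not pass, lbp-1, which lay below lbp-2 by 1.17 ± 0.17. Among elongases, elo-1 and elo-7 are adjacent and differed by 1.13, 0.51, 2.00 and 0.68 (1.08 ± 0.67), without overlap, while elo-6 and elo-5, 3 coding genes apart, differed by 0.42 ± 0.16 with overlapping values. The pairs ech-9 and ech-8, and maoc-1 and acdh-12, are adjacent, and all 4 genes were higher. The gene cpt-5 lies 1 coding gene from lbp-7 and 5 from lbp-8. These exceeded it by 1.88 ± 0.46 and 1.66 ± 0.73, without overlap. With 4 preps, an exact two-sided permutation of signs cannot give any of these pairs a p below 0.125.

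**Figure D4:**
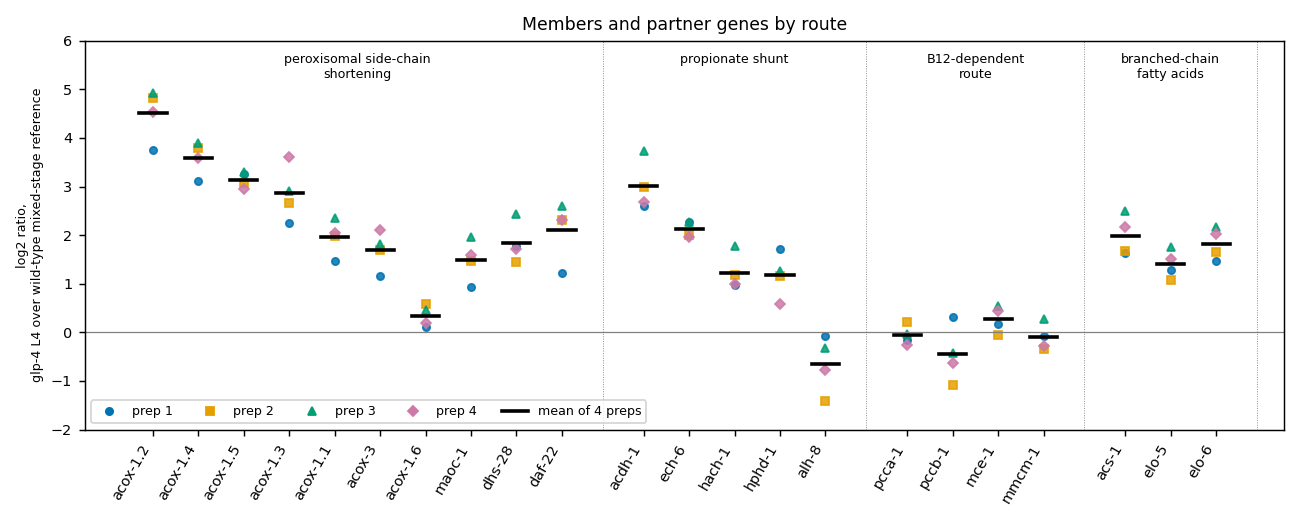
Log2 ratio of glp-4 L4 over the reference (vertical axis) for members and partner genes ordered by route, with a symbol for each of 4 preps and a bar for the mean. The side-chain shortening group holds every measured acyl-CoA oxidase gene, taken by prefix, with maoc-1, dhs-28 and daf-22. All genes of that group and of the branched-chain fatty acid group lie above 0 on every array. The 4 genes of the B12-dependent propionate route have means between -0.46 and 0.28.

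Enzymes that act after the members in peroxisomes were higher as well. The thiolase gene daf-22, which completes ascaroside side-chain shortening, had 1.22, 2.31, 2.59 and 2.31 (2.11 ± 0.61), and the dehydrogenase gene dhs-28, which acts before it, had 1.78, 1.46, 2.43 and 1.70 (1.84 ± 0.42). With maoc-1 and the 7 oxidases, taken by prefix, this made 9 of 10 genes higher (90%) and 0 lower. Over all genes and probes 20.6% were higher and 24.4% lower. None of the 10 was lower at an unadjusted p under 0.05 either (limma), and all 10 lay above 0 on every array. This group was put together with earlier results of these data known. In the list of other beta-oxidation and short-chain breakdown genes, daf-22 and dhs-28 included, 10 of 18 measured were higher (55.6%) and 3 lower (16.7%). The lower share was thus below the 24.4% over all genes and probes. The median of the list was 0.63 ± 0.13. The mitochondrial thiolase homologs kat-1 and acaa-2, picked once their values were known, had 1.07 ± 0.36 and 1.37 ± 0.23. The lower count of 3 was 0 without prep 2, without prep 4 or without moderation. It was 1 without prep 3, with arrays centred or centred and scaled, and with preps 3 and 4 as a block or averaged.

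Genes of the propionate shunt, a route that breaks propionate down without vitamin B12, were mostly higher. Of 5, 4 were higher (80%) and 1 lower (20%), against 20.6% and 24.4% over all genes and probes. Beside acdh-1 and ech-6, both members, hach-1 had 1.23 ± 0.38 and hphd-1 had 1.18 ± 0.46, 2 genes picked once their values were known. The last gene of the shunt, alh-8, had -0.07, -1.42, -0.33 and -0.78 (-0.65 ± 0.59, limma adjusted p = 0.041), a call lost without prep 2, 3 or 4 (-0.39, -0.76 and -0.61), with arrays centred, with preps 3 and 4 as a block or averaged, and without moderation. The call of hphd-1 was also lost without moderation. The 4 genes of the B12-dependent route did not pass, and neither did 7841 of the 14940 named genes tested. The means of the 4 were -0.06 ± 0.20 for pcca-1, -0.46 ± 0.58 for pccb-1, 0.28 ± 0.27 for mce-1 and -0.10 ± 0.28 for mmcm-1. Without prep 1, pccb-1 was called lower (-0.71). For the synthesis of branched-chain fatty acids, acs-1, elo-5 and elo-6 were all higher, as described above.

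Most peroxisomal import and transport genes were higher. Of 17, 14 were higher (82.4%) and 1 lower (5.88%), against 20.6% and 24.4% over all genes and probes. Their median was 1.12 ± 0.19. The list was led by the peroxisomal ABC transporter genes pmp-1 at 1.36, 2.65, 2.84 and 2.59 (2.36 ± 0.68) and pmp-4 at 1.70, 2.14, 2.25 and 1.80 (1.97 ± 0.26). The lower count was 0 without prep 2, 3 or 4, and also with arrays centred, with preps 3 and 4 as a block or averaged, and without moderation. Of 4 measured partners of fatty acid synthesis and elongation, 3 were higher (75%) and 1 lower (25%), the latter share near the 24.4% background. Among the higher ones were mecr-1 at 0.74 ± 0.24 and fasn-1, the fatty acid synthase, at 0.65 ± 0.18. The lower one, pod-2, which encodes acetyl-CoA carboxylase and was picked once its value was known, had 0.15 on prep 1 and -1.56, -1.19 and -1.49 on the others (-1.02 ± 0.80). Its call was lost without prep 2, 3 or 4 (-0.85, -0.97 and -0.87), with preps 3 and 4 averaged, and without moderation.

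Of 12 lipase and lipid droplet genes 3 were higher (25%) and 3 lower (25%), shares near the 20.6% and 24.4% over all genes and probes. The median of the list was 0.11 ± 0.08. The lysosomal lipase homolog lipl-5 had 3.32, 2.56, 3.25 and 2.83 (2.99 ± 0.36), and dgat-2, a triglyceride synthesis enzyme, had 0.22 on prep 1 and 2.28, 2.52 and 2.33 on the others (1.84 ± 1.08), a call lost without moderation. The hormone-sensitive lipase homolog hosl-1 had -1.81 ± 0.25 and the perilipin homolog plin-1 had -0.98 ± 0.15, both picked once their values were known.

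Of 20 regulators of fat genes 4 were higher (20%) and 8 lower (40%), against 20.6% and 24.4% over all genes and probes. The higher share was thus near the background, and the lower count was 3, 5 and 3 without preps 2, 3 and 4, and 5 without moderation or with preps 3 and 4 averaged. The median of the list was -0.23 ± 0.16. The largest were nhr-68, a nuclear receptor that acts in the response to propionate, at 0.99, 1.14, 1.76 and 1.31 (1.30 ± 0.34), and mdt-15, a Mediator subunit that partners NHR-49, at -0.47, -1.23, -1.08 and -1.23 (-1.002 ± 0.36). Picked once its value was known, nhr-49 itself had -0.84, -0.56, -0.19 and -0.57 (-0.54 ± 0.27), a call lost without prep 2 or prep 4 (-0.53 in each case) and without moderation. Picked likewise, nhr-10, which acts with nhr-68, did not pass, at -0.10 ± 0.26. The higher count of the list was 2 without prep 2 or prep 4.

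**Figure D5:**
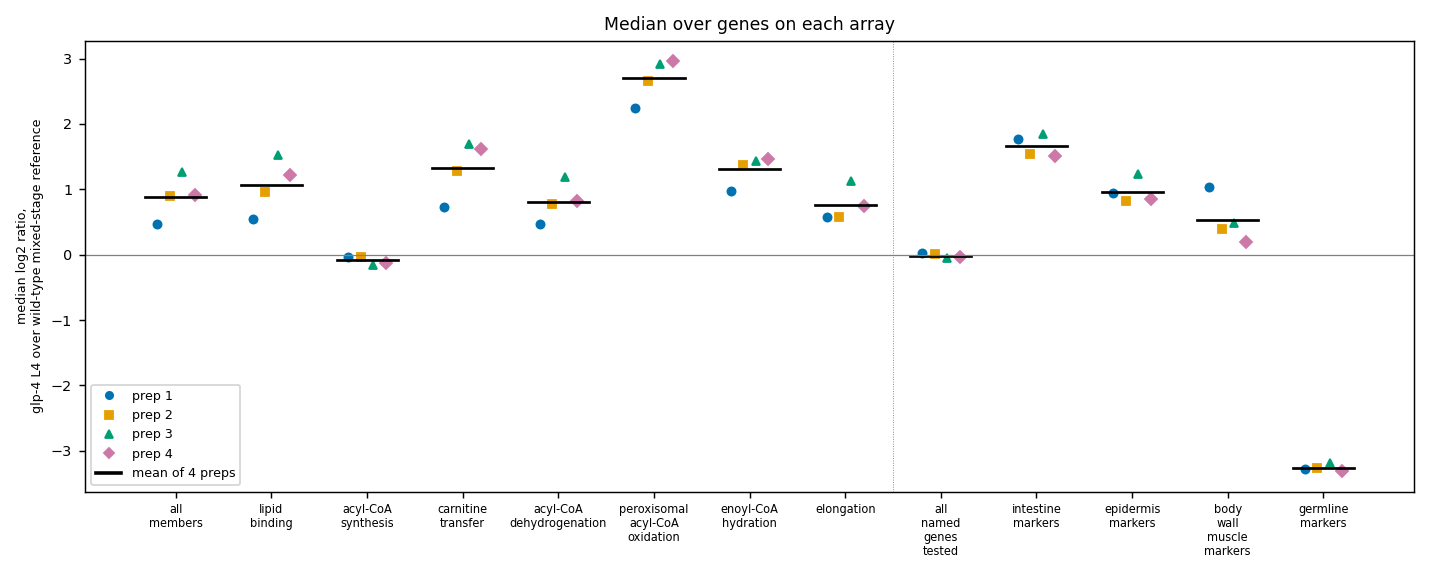
Median log2 ratio of glp-4 L4 over the reference (vertical axis) on each of 4 preps, with a bar for their mean, for all members, each step, all named genes and 4 lists of tissue markers. The member median lies between 0.47 and 1.27 on the 4 preps, the intestine marker median between 1.51 and 1.84, and the germline marker median near -3.26.

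Markers of the tissues in these whole animals moved too. Of 22 measured intestine markers, 20 were higher (90.9%) and 2 lower (9.09%), against 20.6% and 24.4% over all genes and probes. Preps 1 to 4 gave them medians of 1.77, 1.54, 1.84 and 1.51 (1.67 ± 0.16), and single markers had means between -1.96 and 3.69. The largest were the transporter gene pgp-1 at 3.69 ± 0.55 and the acid phosphatase gene pho-1 at 2.78 ± 0.48. The 2 lower ones, picked for that reason, were the ferritin gene ftn-1 at -1.96 ± 0.32 and the protease gene asp-1 at -0.48 ± 0.22, of which asp-1 was lost without prep 1, 3 or 4 (-0.41, -0.44 and -0.49), with arrays centred and scaled, with preps 3 and 4 averaged, and without moderation. The intestine median was lowest on prep 4 and the member median on prep 1. Single intestine markers differed in this, with pho-1 lowest on prep 1 (2.11) and pgp-1 on prep 2 (2.91). In whole animals a change in the number of cells of a type and a change in RNA per cell cannot be told apart, and the part of tissue proportions in the results above was not tested.

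All 24 measured germline markers were lower, against 24.4% of all genes and probes, and 0 higher (limma, 0 also at an unadjusted p under 0.05). They ran from oma-2 and pos-1 at -4.91 ± 0.39 and -5.06 ± 0.67 up to -1.401, with a median of -3.26 ± 0.05. Of 21 epidermis markers 12 were higher (57.1%) and 2 lower (9.52%), against 20.6% and 24.4% over all genes and probes. Their median was 0.96 ± 0.19. The lower count was 0, 1 and 0 without preps 2, 3 and 4, and 0 with preps 3 and 4 averaged. It was 1 with arrays centred, with the title code as a block or without moderation. The higher ones were led by the collagen genes bli-2 at 5.78 ± 0.57 and bli-1 at 3.98 ± 0.08. The widest spread of the list was that of col-19, picked once its values were known. It had 2.15, 1.26, -0.60 and -1.89 on preps 1 to 4 (0.23 ± 1.82) and did not pass, and the cause was not tested. Of 14 body wall muscle markers 7 were higher (50%) and 0 lower, against 20.6% and 24.4% over all genes and probes. At an unadjusted p under 0.05 (limma) 0 were lower too, and 1 was lower without prep 1. The median of the muscle markers was 0.53 ± 0.36, and they were led by unc-27 at 2.196 ± 0.55 and dim-1 at 1.80 ± 0.203.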

How the data were processed

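Per the labels, each array held total RNA of 1 glp-4 L4 prep in one channel and of the reference in the other, and the authors deposited 1 log2 ratio per probe and array. No source used here gives the scanner, background correction, dye normalization or filters. Base 2 was established from the numbers themselves, since their antilogs in that base were whole thousandths (within 0.01) for 100% of ratios under 20 on each array, and the inverse ratios for at most 3.63%. Array medians ran from -0.12 to 0.02. Intensities were not used here, so dim spots cannot be recognised, and precision is limited by having 4 arrays.

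Of 21632 probes, 16450 had 1 gene, 247 several and 4935 none here. Symbols were updated to the RefSeq table of WBcel235 by gene ID (16360 probes), accession (5), symbol or locus tag (85). A gene's value on an array is the mean of its probes (acdh-3, acdh-7 and acs-21 had more than 1). Ratios were tested against 0 in R 4.3.3 by limma 3.58.1 (lmFit and eBayes, two-sided), over the 19989 genes and unnamed probes measured on 3 or more arrays. The steps were tested on simulated data. Sequences of probes, proteins and promoters were not used here, so a planned comparison of them was not made.

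Every member could be named. Values on each array were given for called members with an absolute mean of at least 1 and 1 sign, and for the 2 highest and 2 lowest of each step. For lbp-4, acdh-5 and ech-3, among the 2 lowest of their steps, only the mean and SD were given. Each partner or marker list gave the 2 largest called genes measured on 4 arrays with 1 sign. Members, lists and routes were chosen with earlier results of these data known. The alternatives were array centring and scaling, values on all 4 or at least 2 arrays, 1 probe per gene, leaving out a prep, treating preps 3 and 4 as related because their titles share a code (as a block, or averaged), other moderation and other thresholds.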

Additional observations from a re-analysis of the deposited data

Results flagged for a closer look

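Dixon's ratio was computed for 87 sets of 4 values (each member, and the medians of the steps and lists). It marked 3 sets in which 1 prep lay apart, and chance alone gives about 1 in 20, or 4.35. All 3 were acyl-CoA synthetase genes, and prep 1 was the one apart in each. Prep 1 had a log2 ratio of 1.01 for acs-20, where the other preps had 1.67 to 1.71. It had 1.22 for acs-22, where the others had 1.75 to 1.86. It had -0.068 for acs-23, annotated as a pseudogene, where the others had -0.47 to -0.41. The cause was not tested.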

How the results depend on the processing

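The medians of the members and steps kept their direction and moved by less than 1 SD under each alternative run. The title code as a block was not run for these medians, since they come from no fit. Of 45 higher and 9 lower members, 32 and 1 kept their call under all 14 alternatives run gene by gene, and 36 and 6 kept it whichever prep was left out. Leaving out a prep gave 38 to 46 higher and 6 to 11 lower members. Without moderation of the variances 32 were higher and 4 lower (acs-11 and acs-17 of the 9, with acs-15 and acs-24), and with a mean of at least 1 in size also required there were 33 and 2. Turning every sign swaps the counts to 9 and 45 by construction. No called gene that the text names changed direction in the other settings. Of genes that did not pass, the log2 ratio of elo-4 turned to -0.012 with preps 3 and 4 averaged, and leaving out a prep took it from -0.090 to 0.28. Leaving out a prep took pcca-1 from -0.14 to 0.0092. limma's duplicateCorrelation returned no value for the title code, so a correlation of 0.37, computed from the variance within and between codes, was used, which left 42 higher and 7 lower. The calls it ended were those of lbp-3, acs-12, acdh-4, lbp-5 and acdh-8 and, among partners named, alh-8, and averaging preps 3 and 4 ended these and those of acdh-7, pod-2 and asp-1. Medians over all members with 1 prep left out ran from 0.76 to 1.03. Each ratio already pairs a prep with the reference on the same array, and no further pairing was made because the 4 preps form 1 group. The deposited ratios carry no depth or intensity.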
